A study of Mus musculus with 27 samples.

Results

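The 37 genes described here encode proteins of the complement system (17 genes) and of blood coagulation with its inhibitors and the breakdown of clots (20 genes). They were taken by gene symbol, and each of the 37 was found in all 3 expression tables of the study, which hold 25859 genes for liver and 27178 genes for each of the organoid experiments. The complement genes were the lectin pathway genes Mbl1, Mbl2, Masp1 and Masp2, the convertase components C2, C3, C4b and Cfb, the terminal components Hc, C6, C8a, C8b, C8g and C9, and the regulators Cfi, C4bp and Serping1. The coagulation genes were the factors F2, F3, F5, F7, F9, F10, F11 and F12 with Klkb1 and Kng1, the fibrinogen chains Fga, Fgb and Fgg with F13b, the anticoagulants Serpinc1, Serpind1, Proc and Pros1, and the fibrinolysis genes Plg and Cpb2.

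Hepatocytes make most of the complement and clotting proteins of plasma and secrete them as inactive precursors. In complement, recognition by lectins or antibodies starts a chain of proteases that cleave C3 and then C5 (the product of Hc in mouse), after which C6, C8 and C9 help to build a pore in the target membrane. In coagulation, tissue factor (F3) or the contact factors start a protease chain that ends in thrombin (from F2), which turns fibrinogen into fibrin, while antithrombin (Serpinc1) and the protein C pathway (Proc, Pros1) hold it back and plasmin (from Plg) dissolves the clot. A liver that has lost working hepatocytes is known for low plasma levels of these proteins, and tests of clotting are used to judge liver function.

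Transcripts were sequenced in 27 libraries of mouse liver or mouse liver organoids, in 9 groups of 3 libraries and 3 separately normalized tables. In the liver table the groups were healthy mice, mice made fibrotic by CCl4 (carbon tetrachloride, which is toxic to hepatocytes), and such CCl4 mice that also received Sargassum japonica, a brown seaweed. Organoids, which are small epithelial cultures, were grown in Matrigel with expansion medium and then differentiated for 4 to 5 days. One organoid table compared cultures from mice that received mineral oil, in which CCl4 is dissolved, with cultures from CCl4 mice, left untreated or given the Sargassum japonica extract for 24 h, so that the CCl4 exposure was of the donor mice and not of the dish. In the other, all cultures came from healthy mice and were left untreated, exposed for 24 h to TGF-β1, a fibrosis-promoting cytokine, or exposed to it for 24 h before another 24 h of extract. The labels give no dose, strain, sex or age, do not say whether the liver controls received oil, and do not say when the cultures with TGF-β1 alone were harvested. Nothing in them ties each library of a group to its own animal or culture, so p-values measure only how far these libraries scatter, and that scatter may be technical.

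The libraries held 44.5 to 64.8 M (mega) reads. Values are given as CPM, read counts scaled to the effective library size that the authors used, and as log2 differences of the deposited values from limma with 1 standard error (SE). A gene counts as risen or fallen at a Benjamini-Hochberg adjusted p under 0.05 over all genes tested in the table. The authors' scaling factors differed with the liver group, from 0.854 to 0.923 in healthy liver, from 1.09 to 1.22 in CCl4 liver and from 0.979 to 0.985 with the extract, so scaling and group cannot be told apart there. With the read total alone as the library size, the median log2 difference of all genes moved by 0.382 for CCl4 against healthy liver, by -0.233 for the extract against CCl4 liver and by 0.149 for the extract against healthy liver. In organoids of mineral oil mice, library 1 lay apart on the first principal component (-38.9 against -120.2 and -131.9), and in the TGF-β1 table untreated library 3 and TGF-β1 plus extract library 3 did (79.4 and 95.2 against -27.2 to -23.2 in the other 7). Hepatocyte markers summed to 110000 to 164000 CPM in the liver libraries, to 1460 to 6460 CPM in organoids of oil and CCl4 mice and to 202 to 298 CPM in the TGF-β1 experiment. They were uneven in organoids: in the groups of oil, CCl4 and extract-treated CCl4 organoids, Alb had means of 0.955, 95.3 and 147 CPM and Apob of 1300, 3190 and 3790 CPM, and Asgr1 had no read. In the TGF-β1 experiment most of the sum was Ass1 (group means of 205 to 225 CPM), and Cps1, Cyp2e1 and Hpd had no read. The biliary keratin gene Krt19 was at 0.756 CPM in healthy liver, 4450 CPM in organoids of mineral oil mice and 3090 CPM in untreated organoids. In bulk libraries fewer cells of a type and less RNA per cell cannot be told apart.

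Promoter sequences from RefSeq (GRCm38.p6) were matched for 28 of the 37 genes. Windows are shown for the fibrinogen chains, whose transcripts lay close together in liver and were among the largest differences in organoids. Others are of the 3 genes of complement component C8, which parted under the extract. The last is of C3, whose CPM differed most, in absolute and not in fold terms, between the separately normalized organoid experiments. Each runs 5′ to 3′ on the gene's strand over the 250 bases before the annotated start; for Fga it ends where the first GENCODE transcript begins, which leaves 173 bases. Capitals mark matches, on either strand, to a C/EBP site (TTGCNNAA), an HNF1 half-site (GTTAAT) or an IL-6 response element (CTGGGAA); an HNF4 site (CAAAGTCC) was also searched. The fibrinogen genes (Entrez 14161, 110135 and 99571) form a cluster at chr3:83025903-83026075 on the + strand for Fga, chr3:83049864-83050113 on the - strand for Fgb and chr3:83007474-83007723 on the + strand for Fgg.
Fga: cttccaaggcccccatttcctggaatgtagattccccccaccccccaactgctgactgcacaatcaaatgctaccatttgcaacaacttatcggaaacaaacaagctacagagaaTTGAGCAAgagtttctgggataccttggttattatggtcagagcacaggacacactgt
Fgb: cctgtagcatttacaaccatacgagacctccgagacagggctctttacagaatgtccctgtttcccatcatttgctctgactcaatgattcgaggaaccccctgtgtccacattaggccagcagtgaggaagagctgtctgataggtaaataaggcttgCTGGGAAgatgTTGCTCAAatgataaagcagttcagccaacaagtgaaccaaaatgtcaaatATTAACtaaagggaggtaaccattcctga
Fgg: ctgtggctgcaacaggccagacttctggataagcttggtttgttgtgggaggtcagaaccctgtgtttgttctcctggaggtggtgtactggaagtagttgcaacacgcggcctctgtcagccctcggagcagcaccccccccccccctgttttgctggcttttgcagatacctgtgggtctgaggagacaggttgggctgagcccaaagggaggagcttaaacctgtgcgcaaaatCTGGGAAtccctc
C8a at chr4:104876399-104876648 on the - strand and C8b at chr4:104766067-104766316 on the + strand are neighbours that point towards each other, while C8g lies on another chromosome, at chr2:25501720-25501969 on the - strand, and C3 at chr17:57228137-57228386 on the - strand.
C8a: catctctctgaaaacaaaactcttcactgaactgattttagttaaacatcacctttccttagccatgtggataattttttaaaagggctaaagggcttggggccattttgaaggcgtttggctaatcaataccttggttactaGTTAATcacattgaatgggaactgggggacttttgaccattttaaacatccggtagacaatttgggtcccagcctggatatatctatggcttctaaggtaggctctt
C8b: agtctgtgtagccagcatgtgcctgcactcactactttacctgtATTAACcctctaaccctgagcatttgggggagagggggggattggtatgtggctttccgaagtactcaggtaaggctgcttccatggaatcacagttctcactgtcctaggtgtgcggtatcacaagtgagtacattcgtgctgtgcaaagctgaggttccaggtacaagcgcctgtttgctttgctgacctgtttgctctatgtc
C8g: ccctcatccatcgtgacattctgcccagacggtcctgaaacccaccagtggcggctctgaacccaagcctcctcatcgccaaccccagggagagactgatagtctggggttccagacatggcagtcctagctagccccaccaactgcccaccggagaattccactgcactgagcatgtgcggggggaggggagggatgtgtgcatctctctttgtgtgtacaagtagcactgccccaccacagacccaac
C3: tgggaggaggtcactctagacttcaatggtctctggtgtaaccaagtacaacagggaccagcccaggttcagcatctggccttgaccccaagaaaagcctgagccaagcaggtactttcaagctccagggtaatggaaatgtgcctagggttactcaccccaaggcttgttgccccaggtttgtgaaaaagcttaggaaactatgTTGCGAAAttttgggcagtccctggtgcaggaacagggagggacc
Within the full 250 bases the HNF1 half-site was found in 7 of 29 windows of these genes (24.1%), those of C4bp, F13b, Hc, Fga, Fgb, C8a and C8b, and in 6.43% of 32851 mouse promoter windows of the same length. The match of Fga lies 43 to 38 bases before the RefSeq start, outside the stretch printed. The C/EBP site was found in 7 of 29 windows (24.1% against 9.56% of all), those of Fga, Fgb, F11, Klkb1, C9, C3 and F9, and the IL-6 response element in 4 (13.8% against 9.1%), those of Fgg, Fgb, Masp2 and F9. In Fgb the IL-6 and C/EBP letters lie 91 to 85 and 80 to 73 bases before the start, without overlap. The HNF4 letters were in none of the 29 and in 1.2% of all windows. C8g carries none of these letters in its window, C8a and C8b carry the HNF1 letters and C3 the C/EBP letters. A match is a description of letters and not a binding site.

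In healthy liver the transcripts of these genes spanned a wide range of levels. Divided by exon length, fibrinogen and C3 stood at the top, with Fga at 2820 CPM per kb (2690 to 3090 over the 3 libraries), Fgg at 2630 (2500 to 2880), C3 at 2280 (2220 to 2350) and Fgb at 1240 (1190 to 1300). Fga and Fgg overlapped between libraries, whereas C3 lay below both and Fgb below C3. Plasminogen and kininogen followed, Plg at 911 and Kng1 at 903 CPM per kb with overlapping libraries. Pros1 (20.9), Masp1 (8.35) and F3 (1.02) closed the order. Together the complement genes took 2.02% ± 0.0954 (SD, n = 3) of all reads in healthy liver, 1.8% ± 0.21 in CCl4 liver and 2.02% ± 0.139 with the extract, and the coagulation genes took 3% ± 0.0924, 2.25% ± 0.0379 and 2.34% ± 0.145.

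CCl4 liver held less of most of these transcripts than healthy liver. Of the complement genes 12 of 17 fell and 0 rose, and of the coagulation genes 15 of 20 fell and 0 rose, where 53.9% of the 15078 genes tested were called, 4297 of them higher and 3831 lower. The median log2 difference was -0.73 over the complement genes and -0.65 over the coagulation genes, against 0.00103 over all genes tested. With the read total alone as the library size, 9 complement genes fell and 1 rose, and 10 coagulation genes fell and 4 rose. There 57.2% of all genes were called, 7235 of them higher and 1389 lower, and the median of all genes was 0.378. The genes that rose only there were Mbl2 (0.29, adjusted p = 0.0155, where the authors' scaling gives -0.09), F11 (0.52), F3 (0.67), Serpind1 (0.27, adjusted p = 0.0242) and Pros1 (0.41). Mbl2 and Serpind1 lay below that median. Of the 27 genes that fell, 19 did so under each alternative that was run: C4b, C6, C8a, C8b, C8g, C9, Masp2, Mbl1 and Serping1 among complement genes, and F2, F9, F12, Fga, Fgb, Fgg, Klkb1, Plg, Proc and Serpinc1 among coagulation genes.

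All 6 genes of the terminal pathway among the 37 fell. The terminal component C7 is not among the 37 and had group means of 0.783 CPM in healthy and 2.53 CPM in CCl4 liver. C6, the next component after C5 in the pore, was at 279, 273 and 181 CPM in healthy liver and at 74.8, 105 and 79.2 CPM in CCl4 liver. The groups did not overlap, and the fall was the largest of the 37 genes, by 1.49 ± 0.18 on the log2 scale (adjusted p = 3.72e-05). C8 is built from 3 chains, and in CCl4 liver C8b fell by 1.25 ± 0.14 (adjusted p = 1.43e-05), C8g by 1.06 ± 0.13 (adjusted p = 5.06e-05) and C8a by 0.88 ± 0.13 (adjusted p = 0.0002). C9, which polymerizes to form the pore wall, fell by 0.73 ± 0.14 and Hc, the gene of C5, by 0.65 ± 0.16, the latter not with the read total alone (-0.27, adjusted p = 0.126).

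Among the genes upstream of the pore the members of a pair often differed. The mannose-binding lectin Mbl1 was at 167, 193 and 224 CPM in healthy liver and at 95.4, 117 and 89.2 CPM in CCl4 liver, and fell by 0.95 ± 0.13 (adjusted p = 7.6e-05). Its paralog Mbl2 was at 383, 356 and 434 CPM against 356, 373 and 369 CPM, so the groups overlapped. The ratio of Mbl1 to Mbl2 within a library, which no scaling can change, was 0.436 to 0.542 in healthy liver and 0.242 to 0.314 in CCl4 liver. Of the lectin-associated proteases, Masp2 fell by 0.74 ± 0.12 and Masp1 by 0.50 ± 0.18, the latter not with the read total alone (-0.11, adjusted p = 0.573). C4b fell by 0.87 ± 0.16 and C2, its partner in the classical and lectin convertase, by 0.56 ± 0.11; reads of C4b may be shared with a near-identical copy, which makes its level uncertain, and C2 missed the threshold with the read total alone (-0.18, adjusted p = 0.124). C3, at 11700, 12100 and 11400 CPM in healthy liver and 8270, 10300 and 6900 CPM in CCl4 liver, was lower in every CCl4 library, but its difference of -0.48 ± 0.23 did not pass (adjusted p = 0.102). Factor B (Cfb, -0.24), factor I (Cfi, -0.25) and C4bp (-0.21) did not pass either, while the C1 inhibitor Serping1 fell by 0.96 ± 0.13 (adjusted p = 6.36e-05).

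The fibrinogen chains fell together. Fga was at 8090, 8090 and 9310 CPM in healthy liver and at 4240, 4470 and 4200 CPM in CCl4 liver, Fgb at 4650, 4550 and 4940 against 2570, 2570 and 2460, and Fgg at 5260, 5230 and 6020 against 2970, 3090 and 2960. No library of one group reached the other, and CCl4 liver held 50.7%, 53.8% and 54.6% of the healthy mean. The falls were 0.98 ± 0.18 for Fga (adjusted p = 0.000688), 0.89 ± 0.15 for Fgb (adjusted p = 0.000315) and 0.87 ± 0.16 for Fgg (adjusted p = 0.000698). The ratio of Fgg to Fga stayed within 0.646 to 0.705 and that of Fgb to Fga within 0.531 to 0.607 over all 9 liver libraries. F13b, the carrier subunit of the factor that cross-links fibrin, fell by 0.58 ± 0.14 with the authors' scaling and was at -0.20 (adjusted p = 0.19) with the read total alone.

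The clotting factors did not move as 1 block. Prekallikrein (Klkb1) fell most, by 1.27 ± 0.20 (adjusted p = 0.000252), from 211, 241 and 191 CPM to 90.9, 125 and 60.7 CPM. Its neighbour on chromosome 8, F11, which encodes the closely related factor XI, was at 85.4, 96.9 and 91.3 CPM in healthy liver and at 109, 99.4 and 92.3 CPM in CCl4 liver. These F11 values overlap (0.13 ± 0.09, adjusted p = 0.25), and the ratio of F11 to Klkb1 was 0.402 to 0.478 in healthy liver and 0.795 to 1.52 in CCl4 liver. Thrombin's precursor F2 fell by 0.66 ± 0.13, F9 by 0.67 ± 0.11 and F12 by 0.66 ± 0.10. F7 (0.49 ± 0.10), F10 (0.49 ± 0.11) and Kng1 (0.65 ± 0.16) fell with the authors' scaling but not with the read total alone, where F7 and F10 were both at -0.11 and Kng1 at -0.27 (adjusted p = 0.0777). F5 (-0.35, adjusted p = 0.12) and tissue factor F3 (0.29, adjusted p = 0.311) did not pass.

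Inhibitors split in the same way. Antithrombin (Serpinc1) fell by 0.80 ± 0.13 (adjusted p = 0.000336), from 2500, 2210 and 2560 CPM to 1320, 1520 and 1320 CPM, and protein C (Proc) fell by 0.86 ± 0.10 (adjusted p = 3.33e-05), from 519, 494 and 594 CPM to 306, 306 and 274 CPM. Heparin cofactor II (Serpind1), another thrombin inhibitor, was at 626, 648 and 701 CPM against 625, 669 and 538 CPM. Protein S (Pros1), the cofactor of protein C that cells other than hepatocytes also make, was at 97.7, 88.7 and 70 CPM against 87.5, 87.2 and 83.6 CPM. Both pairs of groups overlapped. Plasminogen (Plg) fell by 0.81 ± 0.16 and the fibrinolysis inhibitor Cpb2 by 0.49 ± 0.11, the latter not with the read total alone (-0.11, adjusted p = 0.31).

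**Figure D1:**
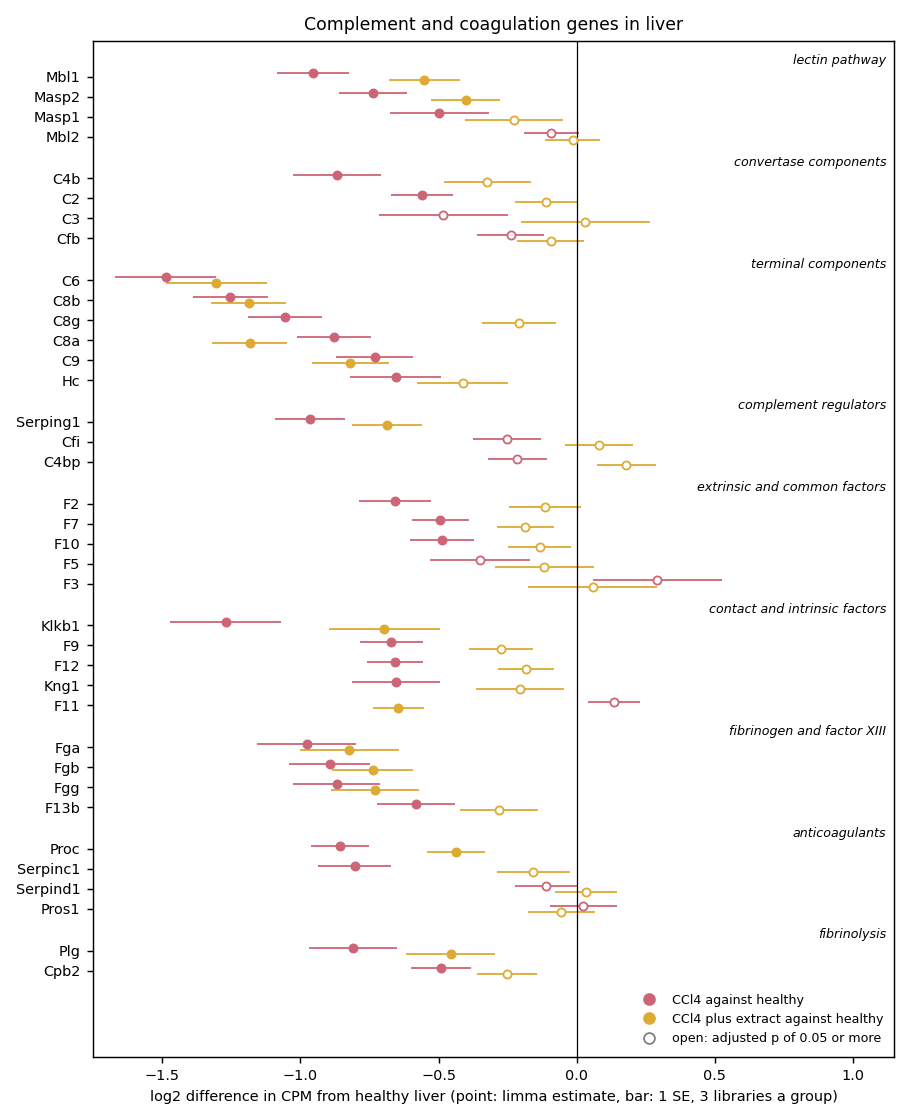
Log2 difference in CPM from healthy liver (x axis) for each of the 37 genes, ordered by role, in CCl4 liver and in CCl4 plus extract liver, with limma estimates as points and 1 SE as bars (3 libraries a group). Filled points passed an adjusted p under 0.05. C6, C8a, C8b, C9 and the 3 fibrinogen chains lie on the left in both groups, while F11 lies near 0.13 with CCl4 and at -0.65 with the extract.

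Other complement and coagulation genes, from lists that leave out the 37, moved in both directions, in a comparison where 53.9% of all genes were called. Of 27 further complement genes tested 13 rose and 10 fell, led by the receptor genes Itgax (3.35 ± 0.15), C3ar1 (2.56 ± 0.14), Itgam (2.52 ± 0.20) and C5ar1 (2.98 ± 0.25), which white blood cells carry. Of 29 further coagulation and fibrinolysis genes 15 rose and 7 fell, led by Anxa2 (3.55 ± 0.17), the plasminogen activators Plat (4.81 ± 0.26) and Plau (2.46 ± 0.25), and thrombospondin Thbs1 (3.76 ± 0.31). Of 16 hepatocyte transcription factors 14 fell and 0 rose, with Cebpa at -1.39 ± 0.12, Cebpb at -1.33 ± 0.15 and Hnf4a at -1.10 ± 0.12. Of 15 hepatocyte markers tested 10 fell and 0 rose, and their summed level was 146000 to 164000 CPM in healthy and 110000 to 122000 CPM in CCl4 liver. Macrophage markers (10 of 12 rose) summed to 572 to 777 CPM in healthy and 1360 to 1570 CPM in CCl4 liver, stellate and fibroblast markers (10 of 11 rose) to 243 to 305 and 1290 to 1770 CPM, and cholangiocyte markers (10 of 11 rose) to 33.1 to 48.6 and 192 to 453 CPM, and each marker of these lists was read in every liver group. On the read total alone 57.2% of all genes were called, 7235 of them higher and 1389 lower. There 15 further complement genes rose and 5 fell, 18 further coagulation genes rose and 3 fell, and 2 transcription factors rose and 8 fell. The part of these cell type shifts in the lower complement and coagulation levels was not tested.

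The extract moved part of these genes towards healthy liver and left others low. Against CCl4 liver, 5 of 17 complement genes rose and 0 fell, and 5 of 20 coagulation genes rose and 1 fell, where 19% of all genes were called. The complement genes were C8g, C2, C4b, C4bp and Mbl1, and the coagulation genes that rose were Serpinc1, F12, F2, Proc and F9. The medians were 0.28 and 0.30, against -0.00202 over all genes. With the read total alone 1 complement gene rose and 1 fell, and 2 coagulation genes rose and 1 fell. There 28% of all genes were called, 641 of them higher and 3586 lower. The medians were 0.04 and 0.07, against -0.232 over all genes, so both lists still lay above the median of all genes. The complement count went to 2 without CCl4 library 1, 1 without CCl4 library 3, and 2, 1 and 1 without extract library 1, 2 and 3. The coagulation count went to 10 without CCl4 library 2 and to 3 without extract library 1 or 3. C8g, Serpinc1 and F11 kept their calls under each alternative that was run.

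C8 showed the parting most plainly. C8g was at 337, 302 and 419 CPM in healthy liver, 160, 197 and 150 CPM in CCl4 liver and 289, 303 and 315 CPM with the extract, a rise of 0.85 ± 0.13 over CCl4 liver (adjusted p = 0.00135). C8a was at 912, 1080 and 955 CPM, then 514, 595 and 494 CPM, then 514, 382 and 407 CPM, and C8b at 389, 371 and 375 CPM, then 166, 190 and 127 CPM, then 185, 157 and 158 CPM. With the extract C8g thus overlapped healthy liver, while C8a and C8b stayed near or below the CCl4 libraries (-0.31 ± 0.13, adjusted p = 0.137, and 0.07 ± 0.14, adjusted p = 0.781). C8a fell under the extract with the read total alone (-0.54, adjusted p = 0.00844). The ratio of C8g to C8a within a library was 0.28 to 0.439 in healthy, 0.304 to 0.331 in CCl4 and 0.562 to 0.793 in extract liver, whereas that of C8b to C8a was 0.344 to 0.427, 0.257 to 0.323 and 0.36 to 0.411.

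Factor XI went its own way. F11 was at 54.6, 60.5 and 59.7 CPM with the extract, below every library of both other groups. It fell by 0.78 ± 0.09 against CCl4 liver (adjusted p = 0.000257) and by 0.65 ± 0.09 against healthy liver (adjusted p = 0.000301). Klkb1 beside it was at 128, 128 and 139 CPM, above each CCl4 library, with a difference of 0.57 ± 0.20 that did not pass (adjusted p = 0.0676), and the ratio of F11 to Klkb1 was 0.427 to 0.473. Serpinc1, at 2170, 2120 and 2220 CPM, rose by 0.65 ± 0.13 over CCl4 liver (adjusted p = 0.00603), and F12 rose by 0.48 ± 0.10 (adjusted p = 0.00747), F2 by 0.54 ± 0.13 (adjusted p = 0.0141) and Proc by 0.42 ± 0.10 (adjusted p = 0.0157).

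**Figure D2:**
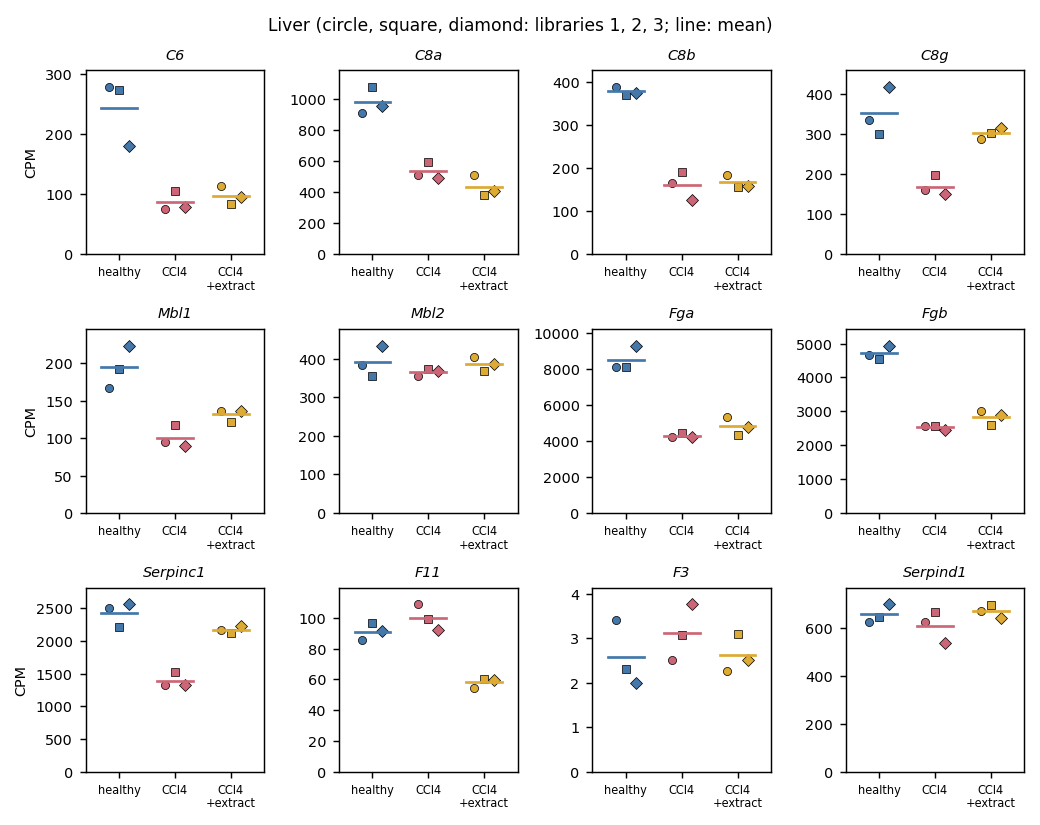
CPM (y axis, from 0) of 12 genes in the 3 libraries of each liver group, with the mean as a line. C8g returns to 289 to 315 CPM with the extract, C8a and C8b do not, and F11 is lowest with the extract at 54.6 to 60.5 CPM.

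Compared with healthy liver, 7 of 17 complement and 7 of 20 coagulation genes were lower in the extract group and 0 were higher, where 34.6% of all genes were called. These were C6, C8a, C8b, C9, Mbl1, Masp2 and Serping1, and F11, Fga, Fgb, Fgg, Klkb1, Plg and Proc. The shares called are near that of all genes, so the number called is no trait of these genes. Of all genes 3169 were higher and 2045 lower. Of these 14 calls 11 were kept under each alternative. Masp2 lost its call with the read total alone (adjusted p = 0.0928) and without healthy library 1 or any 1 extract library (0.0525 to 0.0855), and Klkb1 without healthy library 2 or extract library 1 or 2 (0.0583 to 0.0626). Plg lost its call with the read total alone, without the filter, with the replicate block and in 6 of 9 fits without 1 library (0.0663 to 0.123). The medians were -0.32 and -0.23, against -0.0143 over all genes. C6 held 40% of its healthy level, C8b 44% and C8a 44.3%, where CCl4 liver held 35.4%, 42.5% and 54.5%. Fibrinogen held 56.6% (Fga), 60% (Fgb) and 60.3% (Fgg), and none of the chains passed against CCl4 liver (0.155, 0.16 and 0.14, adjusted p = 0.597, 0.503 and 0.596). Serpinc1 held 89.5%, F2 92.3% and C2 92.5%. Both liver comparisons with healthy mice share the healthy libraries, and both with CCl4 liver share the CCl4 libraries.

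Beside these differences, hepatocyte markers summed to 148000 to 162000 CPM with the extract and 9 of 15 rose against CCl4 liver, stellate and fibroblast markers summed to 774 to 954 CPM (4 of 11 fell), and macrophage markers to 1290 to 1480 CPM (2 of 12 fell). In this comparison 19% of all genes were called. Most of the hepatocyte sum was Alb, with means of 91700 CPM in healthy, 79200 CPM in CCl4 and 102000 CPM in extract liver. Cyp2e1 was at 8420, 663 and 3000 CPM in the same order. Apoa1, Cps1 and Serpina1a had lower means with the extract than in CCl4 liver, and the other hepatocyte markers had higher ones. Of 16 hepatocyte transcription factors 4 rose, Cebpb (1.06 ± 0.15), Nr1i2 (0.61 ± 0.11), Nr1i3 (1.33 ± 0.25) and Cebpa (0.61 ± 0.12). Of 27 further complement genes 6 rose, among them Colec11 (0.78) and Cd59a (0.61), and 3 fell, among them C3ar1 (-0.64). Of 29 further coagulation genes 4 rose and 5 fell, among the latter Anxa2 (-1.33), Serpine2 (-0.92) and Plau (-1.27). On the read total alone 28% of all genes were called, 641 of them higher and 3586 lower. The further complement genes split there into 3 higher and 6 lower and the further coagulation genes into 3 higher and 12 lower. Their part in the results for the 37 genes was not tested.

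In organoids most of these genes were near or below detection. In cultures of oil and CCl4 mice, 7 complement genes (C2, C3, C4b, Cfb, Cfi, C4bp and Masp1) and 7 coagulation genes (F3, F12, Fga, Fgb, Fgg, Proc and Pros1) reached a mean of 1 CPM over the 9 libraries, and C8a, Mbl2 and F7 had no read in 9 libraries, which allows up to 0.00658 CPM, counting error only. Among TGF-β1 experiment libraries, 5 complement genes (C2, C3, C4b, C8g and Cfb) and 2 coagulation genes (F3 and Proc) did, and C6, C9, F7, F10, F13b, Fgg and Klkb1 had no read, which allows up to 0.00647 CPM. The complement genes took 0.0316% to 0.0525% of reads in the first table, as group means, and 0.155% to 0.216% in the second, and the coagulation genes took at most 0.022%. F3, which starts clotting and is known from epithelia, was higher in organoids, at 61.5 to 134 CPM over the 9 libraries of the first table and 80.2 to 123 CPM in the second, and 1.99 to 3.77 CPM in liver. The tables were normalized separately, so no test was made between them.

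Organoids of CCl4 mice held more fibrinogen transcript and less of several complement transcripts than organoids of mineral oil mice. Of the 17 complement genes 8 passed the filter on low values and 4 of these fell; of the 20 coagulation genes 12 passed, 4 rose and 1 fell, where 40.3% of 14818 genes were called. Among the coagulation genes tested the share called is near that of all genes. A gene read in only 1 group passed through that group, so these counts describe and do not support a direction. Fga was at 1.16, 0.13 and 0.642 CPM in organoids of oil mice, 3.48, 17.6 and 19.1 CPM in organoids of CCl4 mice and 20, 14.8 and 24.2 CPM with the extract. Fgb was at 0.279, 0 and 0.0856 CPM, then 0.394, 4.81 and 5.44 CPM, then 4.51, 1.79 and 7.71 CPM. Every CCl4 library lay above every oil library for both, but CCl4 library 1 was far below the other CCl4 libraries.

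The fitted difference was 4.36 ± 0.83 for Fga (94 against 2089 reads over the groups) and 4.28 ± 1.13 for Fgb (18 against 556 reads). Neither met the filter in the oil libraries alone. Both passed through the groups where they are high, so these values are a description and no p is given. Fgb, counted among the genes that rose, lost its call without oil library 2, CCl4 library 2 or CCl4 library 3, and with voom on the recovered reads. Fgg had no read in the oil group, 0, 4.02 and 4.21 CPM in the CCl4 group and 2.64, 2.27 and 4.71 CPM with the extract. Against 3 reads over the oil group it was at least 134-fold higher in the CCl4 group (430 reads) and at least 151-fold higher with the extract (508 reads), and no p is given because the gene passed the filter only through these groups. At their highest these values remain small next to the 8090 CPM or more of Fga in healthy liver. Serpind1 had 5 reads in the oil group, 62 in the CCl4 group and 88 with the extract, and F5 had 14, 64 and 61 reads. Both passed the filter only through the CCl4 and extract groups, so these reads are a description and no p is given.

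The genes that fell were better covered. Cfi, the protease that inactivates C3b, was at 17.4, 20.9 and 34.9 CPM in organoids of oil mice, 6.24, 4.48 and 8.39 CPM in those of CCl4 mice and 8.47, 8.65 and 6.81 CPM with the extract, and fell by 1.91 ± 0.30 (adjusted p = 0.00186). Pros1 was at 2.57, 3.65 and 7.34 CPM, then 0.995, 0.542 and 0.675 CPM, then 0.891, 0.722 and 0.471 CPM, and fell by 2.46 ± 0.43 (adjusted p = 0.00303). For both genes no library of the CCl4 groups reached the oil group. C4bp (-1.13 ± 0.37, adjusted p = 0.0414), Masp1 (-1.03 ± 0.17, adjusted p = 0.0024) and C8g (-0.93 ± 0.27, adjusted p = 0.025) fell as well. C4bp lost its call with only the groups compared in the fit and when any 1 library other than oil library 1 or 3 was left out (adjusted p = 0.0636 to 0.115). C8g lost its call without the filter, with only the groups compared, and without oil library 2 or 3 or CCl4 library 1 or 2 (adjusted p = 0.0525 to 0.0888). C4bp was at 195 CPM in oil library 1, which lies apart, and at 81 and 59.4 CPM in the other oil libraries, against 39.2 to 48.8 CPM in the CCl4 group. C3 was at 3.31, 3.82 and 4.6 CPM in the oil group and at 2.47, 43.9 and 27.6 CPM in the CCl4 group, so that CCl4 library 1 lay below and the others above every oil library, and its difference did not pass (1.89 ± 0.91, adjusted p = 0.134). The coagulation count went to 8 without oil library 1 and to 3 without oil library 2 or CCl4 library 3, and the complement count to 2 without CCl4 library 2.

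Against oil organoids, extract-treated organoids of CCl4 mice had 1 complement gene higher (C3) and 3 lower (Cfi, C4bp and C8g) and 7 coagulation genes higher (Fga, Fgb, Fgg, F5, F13b, Serpind1 and Proc) and 1 lower (Pros1), where 34.5% of all genes were called. All of the 7 but Proc passed the filter only through the CCl4 and extract groups. Of these 12 calls, those of Cfi, Pros1, Fga, F13b and Serpind1 were kept under each alternative that was run, and the other 7 were lost under at least 1. Fga, F13b and Serpind1 passed the filter through the groups where they are high, so their kept calls are no support. C3 was at 30.8, 20.4 and 28.3 CPM there, a rise of 2.74 ± 0.91 (adjusted p = 0.0487). Leaving out any 1 of the 9 libraries other than oil library 1 brought the complement count to 1 or 2, and leaving out any of the 3 extract libraries brought the coagulation count to 5. Against untreated organoids of CCl4 mice, 0 complement and 0 coagulation genes were called by limma, where 0% of all genes were (269 genes at an unadjusted p under 0.05), and voom called 0 as well. At an unadjusted p under 0.05 were Masp1 (0.75 ± 0.17) and Proc (0.25 ± 0.10), both higher. With an SE of 0.83 for Fga and 0.91 for C3, differences of that size were not detectable here.

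**Figure D3:**
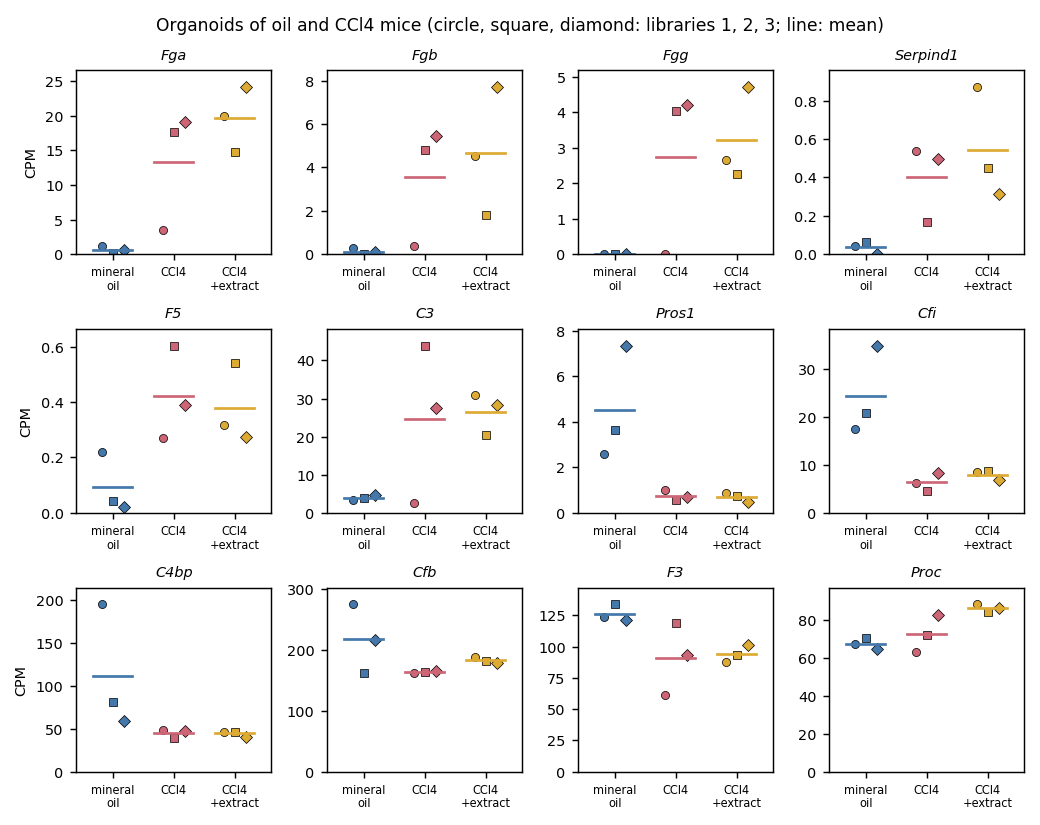
CPM (y axis, from 0) of 12 genes in the 3 libraries of organoids of mineral oil mice, of CCl4 mice and of CCl4 mice with the extract, with the mean as a line. Fibrinogen genes are near 0 in the oil group and lowest of the CCl4 group in library 1 (circle), and Cfi and Pros1 are highest in the oil group.

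In the same cultures cholangiocyte markers summed to 10600 to 12000 CPM in the oil group and 7220 to 8060 CPM in the CCl4 group (8 of 12 fell), and hepatocyte markers to 1460 to 3520 and 2890 to 6460 CPM (3 of 9 tested rose, 1 fell), with Asgr1 at 0 in all 3 groups. Macrophage markers summed to 125 to 300 and 64.6 to 94.6 CPM, with 7 of 12 at 0 in the oil group. By group means most of this was Cd14 (142 and 64.8 CPM) and Csf1r (73.6 and 7.14 CPM). Adgre1, Timd4, Marco and Trem2 had no read in either group, so the sum is no measure of macrophages. Of 16 hepatocyte transcription factors 7 rose and 3 fell, with Cebpa at 2.23 ± 0.18, Nr5a2 at 4.49 ± 0.58, Cebpb at -1.48 ± 0.18 and Foxa1 at -2.12 ± 0.12. Of 12 further complement genes tested 5 rose and 2 fell, among the latter Clu (-2.10 ± 0.37). Of 23 further coagulation genes 3 rose, among them Vkorc1 (1.55 ± 0.19), and 7 fell. Among those that fell were the thrombin receptor Thbd (-4.80 ± 0.68) and the protein C receptor Procr (-2.18 ± 0.41). Group means in oil and CCl4 organoids were low, at 3.16 and 0.111 CPM for Thbd and 1.51 and 0.332 CPM for Procr. Among hepatocyte markers and further coagulation genes the share called was near the 40.3% of all genes. The part of these markers and genes in the differences of the 37 genes was not tested.

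The CCl4 difference in liver was set against that in organoids by donor CCl4 exposure. The difference between both contrasts was tested for the 20 genes that passed the filters in both tables. Of these 12 were called, 9 with the lower value in liver and 3 with the higher, where 54.1% of 13142 genes were. The share called is near that of all genes, so the count is no trait of these genes. All 3 fibrinogen chains fell in liver and were at 4.28 to 4.48 in organoids. Liver minus organoid was -5.33 ± 0.86 for Fga, -5.17 ± 1.17 for Fgb and -5.35 for Fgg. The value of Fgg is counted among the 12 but rests on an oil group with 0 reads and on the prior count, so it is given without a test. In organoids the 3 chains, Serpind1, F5, F13b and Serpinc1 passed the filter only through the CCl4 and extract groups. Their values are counted among the 12 but are a description, and no p is given for them. Pros1 (2.48 ± 0.44, adjusted p = 0.000253) and Cfi (1.66 ± 0.32, adjusted p = 0.000514) were lower in organoids of CCl4 mice while their liver differences were 0.02 and -0.25. C8g was lower in both settings, at -1.06 and -0.93, and the difference of -0.13 ± 0.26 did not pass (adjusted p = 0.701). For the extract the same test called 0 of 20 genes with limma, where 7.02% of all genes were called, and 2 had an unadjusted p under 0.05, C8g (0.75 ± 0.26) and Serpinc1 (0.81 ± 0.37). The controls are healthy liver and organoids of oil mice, and the labels do not say that the former received oil, so tissue and control treatment cannot be told apart.

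**Figure D4:**
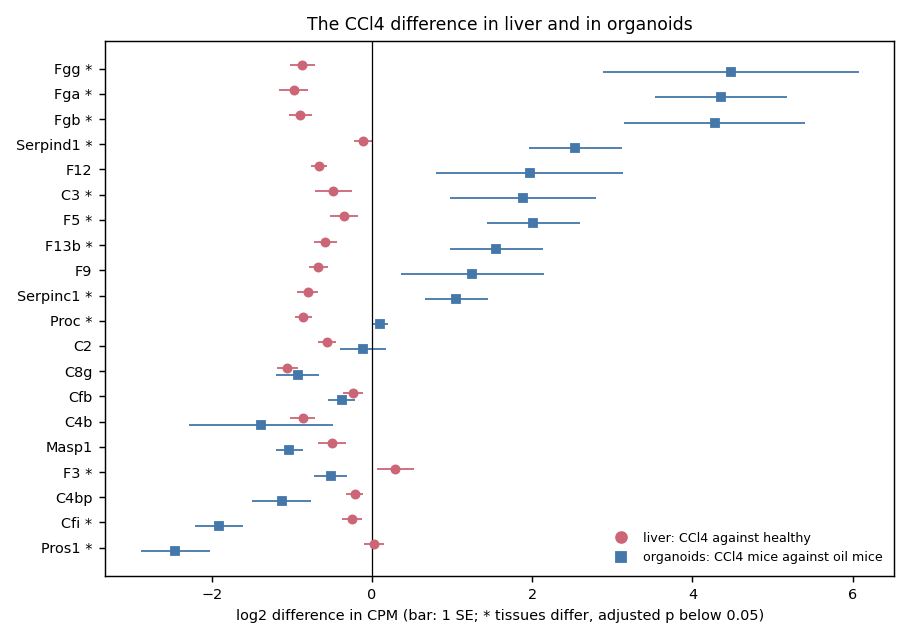
Log2 difference in CPM (x axis) of the 20 genes tested in both tables, for CCl4 against healthy liver (circles) and organoids of CCl4 mice against organoids of mineral oil mice (squares), with 1 SE as bars and 3 libraries a group. Fibrinogen genes lie at -0.98 to -0.87 in liver and 4.28 to 4.48 in organoids, and an asterisk marks the 12 genes whose differences differ.

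In the TGF-β1 experiment 2 of 9 libraries stood apart in several complement genes, C3 most. C3 was at 2300, 2180 and 64.7 CPM in untreated organoids, 2160, 1900 and 1900 CPM with TGF-β1 and 2270, 1890 and 39.4 CPM with TGF-β1 and the extract. Untreated library 3 and TGF-β1 plus extract library 3 were thus far below the other 7, which lay between 1890 and 2300 CPM. Cfb followed, at 137, 120 and 22.9 CPM, then 74.2, 67 and 66.6 CPM, then 66.2, 55.5 and 7.06 CPM. The same libraries had C4b at 35.8 and 21.7 CPM, where the other 7 had 124 to 242 CPM. Acute phase and cytokine signalling genes summed to 866 and 753 CPM in these 2 libraries and to 17100 to 20500 CPM in the other 7. Most of this was Lcn2 (group means of 10600 to 17500 CPM). Genes listed as neutrophil markers summed to 9.28 and 6.54 CPM against 55.2 to 71.9 CPM. By group means most of this was S100a8 (30 to 44.3 CPM) and S100a9 (11.8 to 18.9 CPM). Elane and Mpo had no read, and Ly6g, Retnlg, Mmp8 and Cxcr2 reached at most 0.148 CPM, so the sum is no measure of neutrophils. Whether these sums share a cause with the C3 levels was not tested.

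With all libraries, TGF-β1 against untreated organoids gave 0 of 8 complement and 0 of 3 coagulation genes tested by limma, where 0.0213% of 14095 genes were called. At an unadjusted p under 0.05 were C4bp (-3.01 ± 0.55, adjusted p = 0.125), F3 (-0.27 ± 0.11) and Proc (-0.91 ± 0.26), and voom called 0. C4bp passed the filter on low values only through the untreated group, where it is high, so its values here are a description. TGF-β1 with the extract against untreated organoids also gave 0 and 0, where 0.0142% of all genes were called and C4bp, F3 and Proc again had an unadjusted p under 0.05. Against TGF-β1 alone the extract gave 0 and 0, where 0% of all genes were called, and 0 of these genes had an unadjusted p under 0.05. Leaving out TGF-β1 plus extract library 3 alone gave 1 complement gene in the first of these comparisons.

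Without the 2 libraries that stand apart, TGF-β1 organoids held less of 5 complement genes (C4bp, C8b, C2, Cfb and C4b) and of 2 coagulation genes (Proc and F3) than untreated organoids, where 24.2% of 13753 genes were called. The untreated group then holds 2 libraries. C4bp was at 1.56 and 1.02 CPM untreated against 0.182, 0.183 and 0.289 CPM with TGF-β1, a fall of 2.37 ± 0.40. It would not have met the filter on low values without the untreated libraries, where it is high, so no p is given. Cfb fell by 0.89 ± 0.08 (adjusted p = 1e-05), F3 by 0.40 ± 0.05 (adjusted p = 0.000113), from 123 and 116 CPM to 87.8 to 94.1 CPM, and Proc by 0.58 ± 0.09 (adjusted p = 0.000807), from 25 and 21.9 CPM to 14.2 to 16.5 CPM. C4b fell by 0.70 ± 0.10 (adjusted p = 0.000398), where the fit to all libraries gives 0.18 ± 0.89, so its direction rests on these libraries. Untreated library 3, left out here, had Cfb at 22.9 CPM, below every TGF-β1 library (66.6 to 74.2 CPM). Its F3 was at 90.6 CPM, among the TGF-β1 libraries, and its Proc at 46.6 CPM, above them. The fall of Cfb thus also rests on leaving that library out. Both libraries left out stand apart in Cfb and C4b themselves, so these p-values describe only the libraries kept. C3 did not pass (-0.17 ± 0.08, adjusted p = 0.137). The same 5 complement and 2 coagulation genes were lower with TGF-β1 and the extract than untreated, where 14.2% of all genes were called, and 0 complement and 0 coagulation genes were called by limma between the extract and TGF-β1 alone, where 0% of all genes were called (910 genes at an unadjusted p under 0.05).

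**Figure D5:**
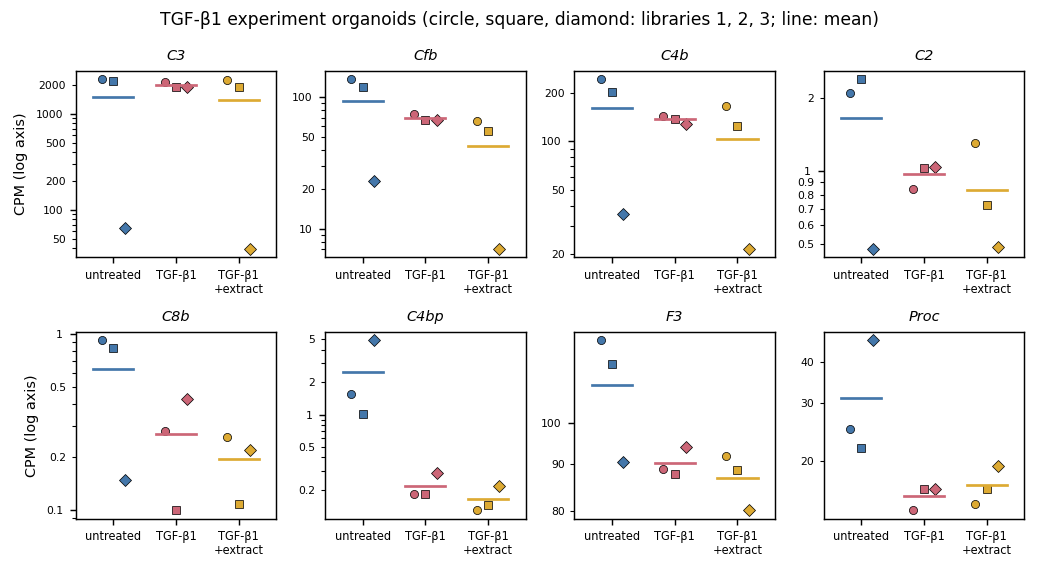
CPM (y axis, logarithmic) of 8 genes in the 3 libraries of untreated, TGF-β1 and TGF-β1 plus extract organoids, with the mean as a line. Library 3 (diamond) of the untreated and of the TGF-β1 plus extract group lies far below the others for C3, Cfb and C4b, and the remaining untreated libraries lie above the TGF-β1 libraries for C4bp, F3 and Proc.

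Beside this, hepatocyte markers summed to 275 to 298 CPM untreated and 206 to 225 CPM with TGF-β1. With the extract as well they summed to 202 to 221 CPM. By group means most of this was Ass1 (225, 209 and 205 CPM), while Alb was at 19.8, 5.58 and 4.74 CPM. The sum is thus no measure of hepatocytes. Without the 2 libraries, 3 of 4 hepatocyte markers tested fell with TGF-β1. In that fit 24.2% of all genes were called. Of 11 further complement genes 1 rose and 3 fell there, among the latter Itgam (-1.50 ± 0.24). Of 19 further coagulation genes 2 rose and 6 fell, among the latter Plat (-0.68 ± 0.09) and Plaur (-0.42 ± 0.05). Hnf4a fell by 0.47 ± 0.08. Their part in the lower levels of C4bp, Cfb, F3 and Proc was not tested.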

How the data were processed

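The authors deposited log2 values for each gene in each library. Judged by the numbers, they are log2 CPM in which the read total was multiplied by a scaling factor and a prior count of 2 was added, and 100% of genes came within 0.05 of a whole number of reads. Libraries were stranded mRNA libraries, per the labels' protocols, and per the submitters' processing notes the build was mm10. Aligner, counter, counting strand, annotation and scaling method: not given in the sources used here.

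Genes with at least 10 reads in 3 libraries and 15 in the table were fitted with limma 3.58.1 (R 4.3.3; trended empirical Bayes, two-sided, 3 group means over the 9 libraries of a table). P-values were Benjamini-Hochberg adjusted over all genes tested (15078 in liver, 14818 and 14095 in organoids), and the steps were tested on simulated data. Liver and organoid differences were compared as a contrast in 1 limma fit over both tables with 6 group means, on genes that passed both filters. Alternatives were the read total as library size, a prior count of 0.5, no filter, voom on recovered reads, 2 groups only, each library left out, the replicate number as a block, and 2 libraries left out together. Exon lengths are from GENCODE (GRCm38). The members and lists were chosen with earlier results of these data known. All 37 genes may be named. Of other lists at most the 4 called genes with the smallest p per comparison are, apart from C7 and Lcn2. Marker lists are given by counts and sums, with a few markers named.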

Additional observations from a re-analysis of the deposited data

Results flagged for a closer look

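The CCl4 difference in liver was set against that in organoids for 20 genes, and 12 were called different, where 54.1% of all genes tested were. The log2 values here are liver minus organoid. The coagulation genes with the lower value in liver were Fgg (-5.35), Fga (-5.33), Fgb (-5.17), Serpind1 (-2.65), F5 (-2.36), F13b (-2.13), Serpinc1 (-1.85) and Proc (-0.96). C3 was the complement gene among them (-2.37). The 3 genes with the higher value in liver were F3 (0.81), the complement regulator Cfi (1.66) and Pros1 (2.48). Of 22 alternatives, C3 lost its call in 21 and F3 in 15, while the other 10 genes kept theirs in each of the 22. Fga, Fgb, Fgg, Serpind1, F5, F13b and Serpinc1 each had a mean under 1 CPM in organoids of mineral oil mice. Fgg had no read there, so its value is no test. Fgg and the others of these genes each passed the filter only through the CCl4 and extract groups, so the calls they kept describe and do not support a direction.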

How the results depend on the processing

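With the read total as library size, the extract against CCl4 liver gave 2 complement and 3 coagulation genes. Serpind1 (0.27) and Mbl2 (0.29) turned upward in CCl4 liver, where the median of all genes was 0.378. Without a filter that complement count was 3, and it was 2 for extract-treated organoids of CCl4 mice against organoids of oil mice. With only the groups compared in the fit, organoids of CCl4 mice against those of oil mice gave 2 complement and 3 coagulation genes, and extract-treated ones against those of oil mice 2 complement genes. Without the 2 libraries that stand apart, TGF-β1 organoids and TGF-β1 plus extract organoids each gave 5 complement and 2 coagulation genes against untreated, and C4b turned to -0.70 with TGF-β1.

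Leaving out 1 library gave 11 to 16 complement and 15 to 16 coagulation genes for CCl4 against healthy liver, 1 to 7 and 3 to 10 for the extract against CCl4 liver, and 6 to 8 and 5 to 8 for the extract against healthy liver. In organoids of CCl4 mice it gave 2 to 4 and 3 to 8 against oil, and with the extract 1 to 3 and 5 to 10. For TGF-β1 against untreated it gave 0 to 1 complement genes. The CCl4 difference between liver and organoids gave 10 to 15 genes and that of the extract 0 to 2 (2 without oil library 1, 1 without organoid extract library 3). Every other count stayed at 0.

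The correlation of the deviations of same-numbered libraries ran from -0.145 to 0.137 in liver, from -0.148 to 0.366 in organoids of oil and CCl4 mice and from -0.04 to 0.718 in the TGF-β1 experiment, where both libraries that stand apart are number 3. As it was not positive for every pair in any table, the numbers were not taken as a pairing. With the replicate block 235 of 244 gene-level calls stayed on their side of the threshold, 2 were gained and 7 lost, and extract-treated organoids against those of oil mice gave 2 complement genes. Over all alternatives 3714 of 3969 gene-level values kept their direction and side, and the cause of the changes was not tested.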
